A study of Mus musculus with 2 samples.

Results

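The proteasome subunit genes were examined in femoral growth plate cartilage of *Tric-b*-knockout mouse embryos. Members were all probe sets annotated to a single gene whose symbol is Psma, Psmb, Psmc, Psmd or Psme followed by a number, which gave 42 genes on 88 probe sets, of 18193 named genes and 45037 probe sets on the array. *Psme2*, an activator subunit, was not a member because its probe set is annotated to *Psme2b* as well, and it was not analysed here. Tric-b, encoded by *Tmem38b*, is a cation channel of the endoplasmic reticulum membrane. One Affymetrix mouse genome array was hybridized with RNA of the columnar and hypertrophic section of the cartilage plate and another with RNA of the round chondrocyte section, both from *Tric-b*-knockout embryos at E17.5 with a C57BL/6J and 129Sv strain background. The sections are called columnar/hypertrophic cartilage and round cartilage here. Each RNA was a mixture of 3 preparations, so that each zone had 1 array and the differences have no replicate check, error or p-value. Wild-type arrays were not analysed here, and every value below belongs to knockout cartilage.

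The proteasome is the protease that degrades proteins tagged with ubiquitin in the cytosol and nucleus. Its barrel-shaped 20S core is built of outer rings of alpha subunits (*Psma* genes), which gate the entrance, and inner rings of beta subunits (*Psmb* genes), some of which carry the protease sites. The 19S regulator caps the core: its base holds a ring of ATPases (*Psmc* genes) that unfold the substrate and thread it into the barrel, and its lid (*Psmd* genes) removes the ubiquitin chain. The *Psme* genes encode other caps, which open the core without ubiquitin. Interferon replaces the catalytic beta subunits of newly made particles with immunoproteasome subunits, which change the peptides available for antigen presentation. In chondrocytes, which make procollagen in large amounts, chains that fail to fold in the endoplasmic reticulum can be sent back to the cytosol and degraded by the proteasome.

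Promoter windows of the mouse build GRCm38.p6, from 250 bases before to 50 bases after the annotated start in RefSeq, were found for 35 of the 42 members. The 4 windows below are shown because they belong to constitutive catalytic subunits with the higher signal in columnar/hypertrophic cartilage (*Psmb5*, *Psmb6*) and to the immunoproteasome and activator subunits with the higher signal in round cartilage (*Psmb10*, *Psme1*). They are written 5′ to 3′ on the gene's own strand, and capitals mark a match to TGACNNNGC, the core of the antioxidant response element read by NRF1 and NRF2, or to an interferon-stimulated response element, written as GAAA, any 2 bases and GAAA, on either strand.
Psmb5 (chr14:54617946-54618245, minus strand): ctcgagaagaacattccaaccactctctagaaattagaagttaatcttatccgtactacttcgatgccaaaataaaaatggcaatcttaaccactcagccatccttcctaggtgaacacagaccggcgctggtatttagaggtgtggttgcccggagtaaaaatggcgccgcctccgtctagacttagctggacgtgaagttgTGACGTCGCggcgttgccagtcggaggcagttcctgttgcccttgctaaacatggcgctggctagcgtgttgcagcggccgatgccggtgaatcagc
Psmb6 (chr11:70525107-70525406, plus strand): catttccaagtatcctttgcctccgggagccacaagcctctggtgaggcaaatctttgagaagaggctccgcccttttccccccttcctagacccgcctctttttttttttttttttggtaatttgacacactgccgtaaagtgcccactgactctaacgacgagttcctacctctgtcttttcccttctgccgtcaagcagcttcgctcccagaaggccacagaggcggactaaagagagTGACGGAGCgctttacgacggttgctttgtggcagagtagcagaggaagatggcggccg
Psmb10 (chr8:105938343-105938642, minus strand): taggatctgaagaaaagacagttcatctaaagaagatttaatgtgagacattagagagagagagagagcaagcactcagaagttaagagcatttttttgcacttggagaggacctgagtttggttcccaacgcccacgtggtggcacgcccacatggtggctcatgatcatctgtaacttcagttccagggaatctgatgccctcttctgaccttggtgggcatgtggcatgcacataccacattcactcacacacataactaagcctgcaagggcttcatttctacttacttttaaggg
Psme1 (chr14:55578244-55578543, plus strand): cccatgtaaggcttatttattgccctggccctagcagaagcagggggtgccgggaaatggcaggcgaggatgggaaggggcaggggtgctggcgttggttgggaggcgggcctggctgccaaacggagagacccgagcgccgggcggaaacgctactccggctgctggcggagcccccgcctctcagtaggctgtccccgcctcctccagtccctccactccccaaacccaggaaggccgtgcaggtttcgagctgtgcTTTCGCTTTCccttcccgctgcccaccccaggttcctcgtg
The *Psmb5* and *Psmb6* windows each held 1 match to the antioxidant response element, the *Psme1* window held 1 match to the interferon-stimulated response element on the opposite strand, and the *Psmb10* window held neither sequence of letters.

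Over all members, TGACNNNGC was present on either strand in 6 of 35 promoters (17.1%), namely *Psmb5*, *Psmb6*, *Psmc6*, *Psmd12*, *Psmd9* and *Psme4*, against 14.0% of all 27025 genes with a window. The interferon-stimulated response element was present in 4 members (11.4%), *Psmb3*, *Psmd4*, *Psmd9* and *Psme1*, against 3.99% of all genes. The CGGAAG core bound by ETS-family factors was present in 20 members (57.1%) against 18.8% of all genes, and the GC box GGGCGG bound by SP1-family factors in 21 members against 38.2%. CCAAT, bound by NF-Y, was found in 14 members and 41.1% of all genes, and TTCNNNGAA, the core of the gamma-activated site read by STAT factors after interferon gamma, in 2 members (5.71%), *Psmb8* and *Psmd2*, and 9.55% of all genes. The motifs were chosen with their matches known, and a match describes letters in a window, not a bound site.

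The deposited values were linear probe set signals, and the trimmed mean was 496 in columnar/hypertrophic cartilage and 497 in round cartilage. A floor of 65.9, the 40th percentile of both arrays together, was used for low signals, and a difference was the log2 signal of columnar/hypertrophic cartilage minus that of round cartilage. *Tmem38b* had signals of 43.1 to 304 in columnar/hypertrophic cartilage and 69.4 to 323 in round cartilage over 4 probe sets, and as the position of these probe sets relative to the deletion was not known here, they check no genotype. All 7 general chondrocyte markers were above the floor in both arrays. Of 7 markers of columnar and hypertrophic cells, 6 were above it in columnar/hypertrophic cartilage and 3 in round cartilage, with summed signals of 87700 and 5059, while *Mmp13*, a marker of terminal hypertrophic cells, was under the floor in both. The 4 measured round chondrocyte markers were above it in both arrays and summed to 3118 in columnar/hypertrophic cartilage and 25708 in round cartilage. Most of the round sum came from *Cytl1* (18322) and *Prg4* (5260). *Sfrp5* did not mark the round section, with 1244 in columnar/hypertrophic cartilage and 1177 in round cartilage. The sections are bulk tissue, so more cells of a type and more RNA per cell cannot be told apart.

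Proteasome subunits had, as a group, moderately higher signals in columnar/hypertrophic cartilage. Of the 39 member genes that could be compared, 36 were higher in columnar/hypertrophic cartilage, against 46.8% of all 12761 compared genes. The median log2 difference of the members was 0.40, a ratio of 1.32, with an interquartile range of 0.27 to 0.51. All compared genes had a median of -0.04 and an interquartile range of -0.37 to 0.26. The 3 genes with the higher signal in round cartilage, a direction shown by 53.2% of all compared genes, were the testis-type core subunit *Psma8*, the immunoproteasome subunit *Psmb10* and the activator subunit *Psme1*. Only *Psme3*, which encodes another activator, differed 2-fold or more on its brightest probe set, against 4.24% of all compared genes at least 2-fold higher in columnar/hypertrophic cartilage and 6.16% in round cartilage.

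**Figure D1:**
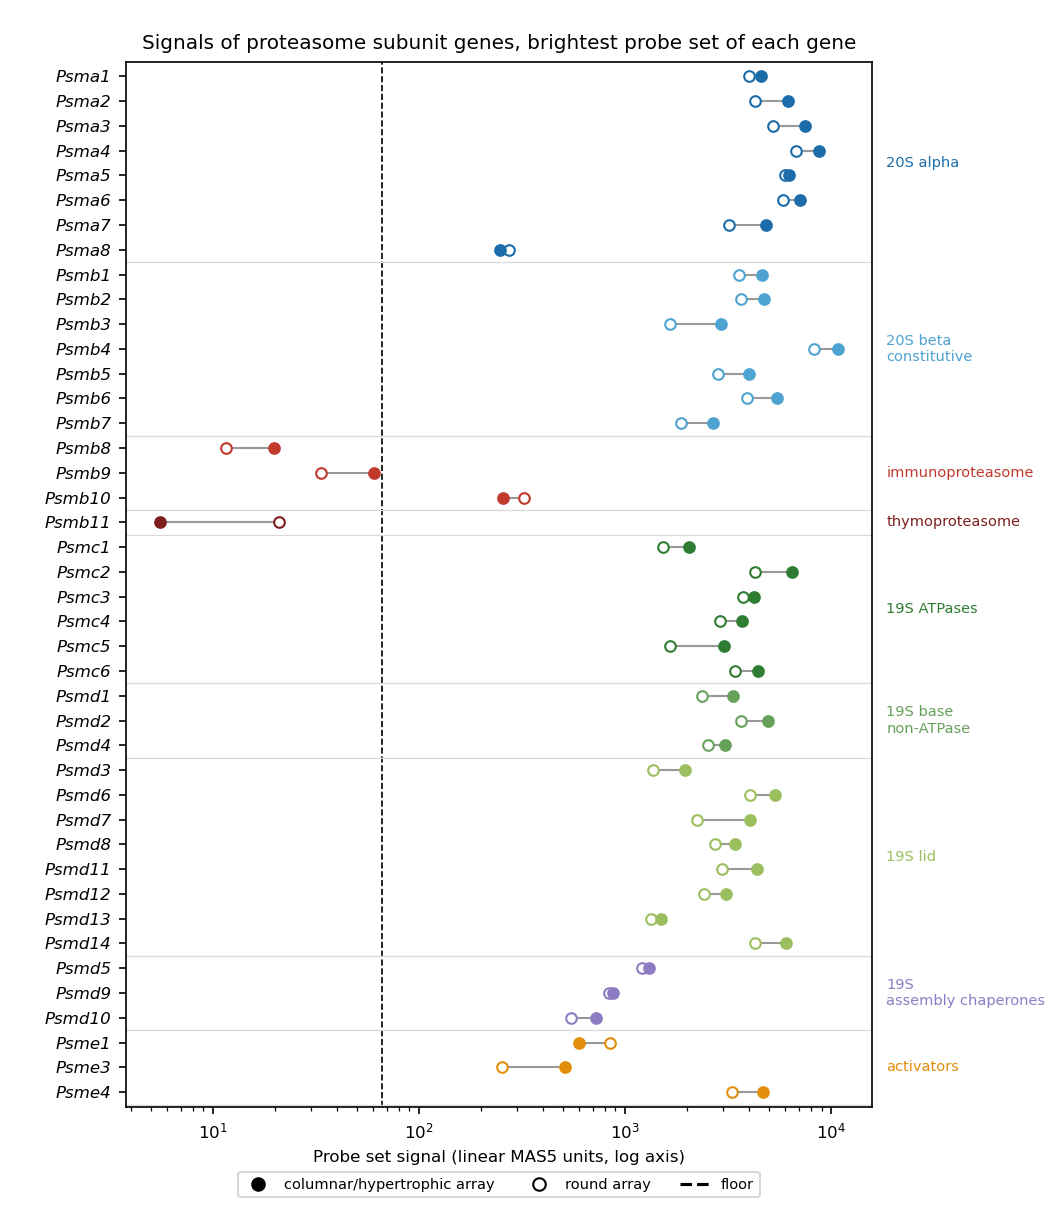
Linear signal (log axis) of the brightest probe set of all 42 member genes in columnar/hypertrophic cartilage and round cartilage, 1 point for each array, grouped by subunit class, with the floor of 65.9 as a line. Most genes of the core and the 19S regulator lie far right of the floor with the columnar/hypertrophic point to the right, and *Psmb8*, *Psmb9* and *Psmb11* lie under the floor in both arrays.

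The differences lay mostly in 1 direction but were small. At a 1.5-fold size rule, 6 of 39 member genes were higher in columnar/hypertrophic cartilage and 0 in round cartilage, against 10.4% and 15.2% of all compared genes. These were *Psma7*, *Psmb3*, *Psmc2*, *Psmc5*, *Psmd7* and *Psme3*, and they belong to the core, the ATPase ring, the lid and the activators. Counted by probe set, 11 of 76 compared member probe sets were at least 1.5-fold higher in columnar/hypertrophic cartilage and 4 in round cartilage, against 9.41% and 17.4% of all 29258 compared probe sets. At 2-fold, the counts were 2 and 0, against 3.58% and 6.24%. Of the calls at 1.5-fold, 73.3% were therefore in the columnar/hypertrophic direction. This share was 100% after quantile normalization (9 probe sets against 0), 90.0% after lowess centring and 87.0% after centring on the median difference. The same share over all probe sets was not computed at 1.5-fold under these scalings. At 2-fold it rose as well, from 36.4% of all called probe sets as deposited to 48.6%, 47.3% and 45.4%, so the rise was not particular to the members.

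In the outer ring of the core, 7 of 8 alpha subunit genes were higher in columnar/hypertrophic cartilage, with a median log2 difference of 0.33. This median was 0.17 after quantile normalization, 0.18 after lowess centring and 0.15 with the mean or median over probe sets. *Psma1*, for alpha6, was counted as higher on its brightest probe set (0.19). Its 3 dimmer probe sets were higher in round cartilage, and its mean over probe sets was -0.21. *Psma7*, which encodes alpha4, had 4837 and 4054 on its probe sets in columnar/hypertrophic cartilage, against 3206 and 2706 in round cartilage. Both probe sets thus gave nearly the same log2 difference, 0.59 and 0.58. *Psma2* and *Psma3*, for alpha2 and alpha7, followed with differences of 0.53 and 0.52 on their brightest probe sets. A dimmer *Psma3* probe set had 349 in columnar/hypertrophic cartilage and 357 in round cartilage (-0.03), and the mean over both was 0.24. *Psma5*, for alpha5, stood at the other end of the canonical alpha subunits, with 6236 and 3764 in columnar/hypertrophic cartilage and 5971 and 3618 in round cartilage, differences of 0.06 on both probe sets. The sign of *Psma5* turned under quantile normalization and lowess centring. The counts include it as higher in columnar/hypertrophic cartilage, but its direction depended on the scaling. *Psma8*, whose product replaces alpha4 in male germ cells, had low signals of 248 in columnar/hypertrophic cartilage and 273 in round cartilage, a difference of -0.14 whose sign also turned under those scalings.

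In the inner ring, all 7 constitutive beta subunit genes were higher in columnar/hypertrophic cartilage, with a median of 0.49. *Psmb3*, for the non-catalytic subunit beta3, had the largest difference of the core, with 2927 and 1913 in columnar/hypertrophic cartilage and 1653 and 1237 in round cartilage on its probe sets. The corresponding ratios were 1.77 and 1.55. The 3 catalytic subunits lay close together. *Psmb5*, which carries the chymotrypsin-like site, had a signal of 3998 in columnar/hypertrophic cartilage and 2845 in round cartilage (log2 difference 0.49). *Psmb6*, with the caspase-like site, had 5495 in columnar/hypertrophic cartilage and 3907 in round cartilage (0.49). *Psmb7*, with the trypsin-like site, had 2690 in columnar/hypertrophic cartilage and 1866 in round cartilage (0.53). All 3 catalytic genes were thus 1.41- to 1.44-fold higher in columnar/hypertrophic cartilage, each on its only probe set, and *Psmb1*, *Psmb2* and *Psmb4* had smaller differences of 0.37 to 0.38 on their brightest probe sets. For *Psmb4*, whose other probe set ran the other way, the mean over probe sets was 0.14.

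Of the immunoproteasome subunits, only *Psmb10* could be compared, and its difference ran the other way. *Psmb8* (LMP7, the counterpart of *Psmb5*) was under the floor in both arrays, with signals of 19.9 and 7.80 in columnar/hypertrophic cartilage and 11.6 and 11.6 in round cartilage. *Psmb9* (LMP2, the counterpart of *Psmb6*) was under it as well, with 60.6 in columnar/hypertrophic cartilage and 33.4 in round cartilage, so that no ratio to the constitutive subunit was formed for either gene. A floor at the 20th percentile would admit *Psmb9* with a log2 difference of 0.86, in the opposite direction to *Psmb10*. Without a floor, *Psmb8* would enter as well, at 0.78 on its brightest probe set. *Psmb10* (MECL-1, the counterpart of *Psmb7*) had a signal of 257 in columnar/hypertrophic cartilage and 325 in round cartilage, a log2 difference of -0.34. The log2 difference of *Psmb10* minus that of *Psmb7* was -0.87, which means that *Psmb10* relative to *Psmb7* was 0.549 times as high in columnar/hypertrophic cartilage as in round cartilage. This value was smaller in size after quantile normalization (-0.66) and lowess centring (-0.63). The pair sets a dim probe set against a bright one, with mean signals of 289 for *Psmb10* and 2240 for *Psmb7*. The thymus-specific subunit gene *Psmb11* was under the floor, with 5.54 in columnar/hypertrophic cartilage and 21.0 in round cartilage.

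In the 19S regulator, all 17 subunit genes were higher in columnar/hypertrophic cartilage, with a median of 0.42. The core without immunoproteasome and thymus subunits had a median of 0.38 over 15 genes, so that core and regulator lay close together. Of the ATPase genes, *Psmc5*, which encodes RPT6, had a signal of 3021 in columnar/hypertrophic cartilage and 1661 in round cartilage, a ratio of 1.82. *Psmc2*, for RPT1, had 6445 and 6354 in columnar/hypertrophic cartilage and 4260 and 4197 in round cartilage on its bright probe sets, a log2 difference of 0.60 on each. A dim probe set of *Psmc2* ran the other way, with 110 in columnar/hypertrophic cartilage and 139 in round cartilage, and the mean over probe sets was 0.29. *Psmc3*, for RPT5, had the smallest difference of the ring, 0.18, with 4216 in columnar/hypertrophic cartilage and 3727 in round cartilage. The 6 ATPase genes together had a median of 0.39.

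The probe sets of *Psmc6*, for RPT4, disagreed. The brightest gave 4411 in columnar/hypertrophic cartilage and 3426 in round cartilage (log2 difference 0.36). The others gave 1150 and 111 in columnar/hypertrophic cartilage, against 1219 and 190 in round cartilage, differences of -0.08 and -0.77. The direction of *Psmc6* thus rested on the choice of probe set, and its mean over probe sets was -0.16.

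The non-ATPase subunits of the base include the ubiquitin receptors and docking sites. *Psmd1* (RPN2, a large scaffold) had the largest difference on its brightest probe set, 0.49, with 3333 in columnar/hypertrophic cartilage and 2380 in round cartilage. *Psmd2* (RPN1, a docking site for ubiquitin shuttles) had a difference of 0.43. *Psmd4* (RPN10, a ubiquitin receptor) had 3068 and 1834 in columnar/hypertrophic cartilage and 2545 and 1466 in round cartilage, differences of 0.27 and 0.32. A further *Psmd4* probe set had 152 in columnar/hypertrophic cartilage and 37.7, under the floor, in round cartilage, which gives a bound of at least 2.30-fold. That probe set was dim, and the bright ones did not reach 1.5-fold.

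All 8 lid genes were higher in columnar/hypertrophic cartilage, with a median of 0.46. *Psmd7* (RPN8, the partner of the deubiquitinase in the lid) had the largest difference, with 4042 in columnar/hypertrophic cartilage and 2234 in round cartilage, a ratio of 1.81. Its dimmer probe set had 348 in columnar/hypertrophic cartilage and 441 in round cartilage, a difference of -0.34, so the size of the *Psmd7* difference was lower, 0.26, as a mean over probe sets. *Psmd14* (RPN11, the deubiquitinase that removes the ubiquitin chain) had 6024 in columnar/hypertrophic cartilage and 4257 in round cartilage (0.50). *Psmd3* (RPN3) had a difference of 0.51. *Psmd11* (RPN6, which clamps the lid to the core) had 4388 in columnar/hypertrophic cartilage and 2962 in round cartilage (0.57) on its brightest probe set, and its 5 compared probe sets ranged from -0.25 to 0.57. *Psmd13* (RPN9) had the smallest difference of the lid, 0.16, with 1494 in columnar/hypertrophic cartilage and 1335 in round cartilage, and its sign turned with the mean over probe sets (-0.07).

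**Figure D2:**
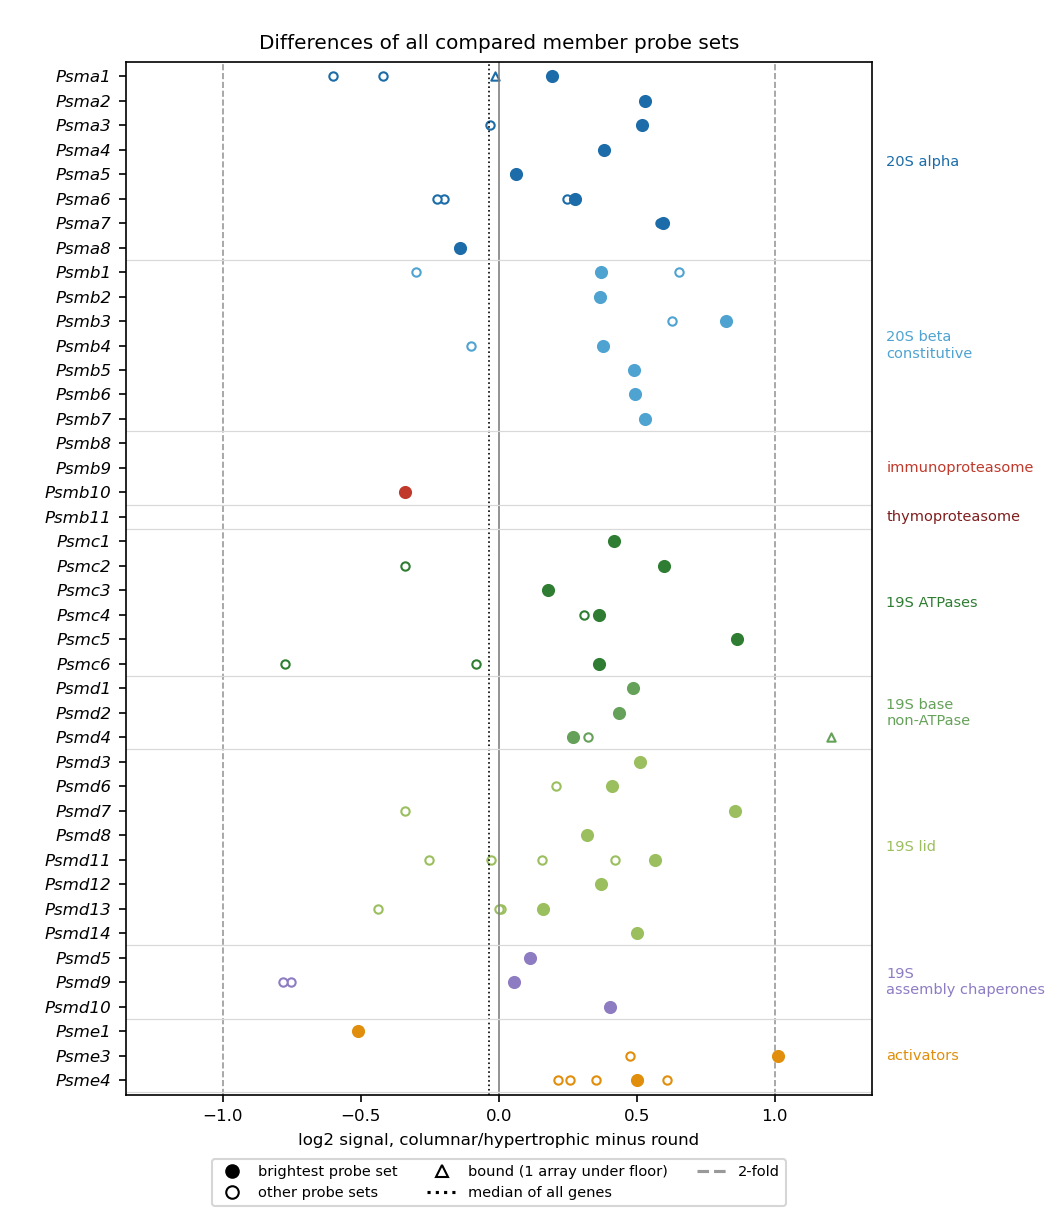
Log2 signal of columnar/hypertrophic cartilage minus round cartilage for the 76 compared member probe sets, 1 row for each gene, with filled points for the brightest probe set, open points for the others and triangles for bounds where 1 array was under the floor. Filled points of the core and the 19S regulator lie right of 0 except for *Psma8*, open points are spread to both sides, and dashed lines mark 2-fold.

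Of the chaperones that help to assemble the regulator base, which leave the finished particle, *Psmd5* and *Psmd9* had smaller differences. *Psmd10* lay at the median of all members. *Psmd5* (S5b) had signals of 1305 in columnar/hypertrophic cartilage and 1206 in round cartilage (log2 difference 0.11). *Psmd9* (p27) had 873 in columnar/hypertrophic cartilage and 841 in round cartilage (0.05). Its dim probe sets had 73.7 and 125 in columnar/hypertrophic cartilage, against 124 and 214 in round cartilage, differences of -0.75 and -0.78. *Psmd10* (gankyrin) had 725 in columnar/hypertrophic cartilage and 548 in round cartilage (0.40). The median of these 3 genes was 0.11, below the medians of the structural classes, and no test of that gap was possible. The gap to the alpha subunits was small under other settings. The medians of chaperones and alpha subunits were 0.13 and 0.17 after quantile normalization and 0.14 and 0.18 after lowess centring. With the mean over probe sets they were 0.11 and 0.15.

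The activators went in different directions. *Psme3*, whose product PA28 gamma caps the core in the nucleus, had the largest difference among the brightest probe sets of the members, with 513 in columnar/hypertrophic cartilage and 255 in round cartilage, a log2 difference of 1.01 and a ratio of 2.01. With the mean over probe sets it was 0.74, below the 0.86 of *Psmc5*. A dimmer *Psme3* probe set had 186 in columnar/hypertrophic cartilage and 134 in round cartilage (0.48), and a further one was under the floor with 2.18 in columnar/hypertrophic cartilage and 21.5 in round cartilage. *Psme4*, for PA200, an activator of the nucleus known for its role in spermatogenesis, had 4680 in columnar/hypertrophic cartilage and 3309 in round cartilage (0.50). Its other probe sets had 2791, 1501, 552, 341 and 156 in columnar/hypertrophic cartilage, against 1827, 1175, 476, 285 and 110 in round cartilage. All 6 *Psme4* probe sets were therefore higher in columnar/hypertrophic cartilage, by 0.21 to 0.61. *Psme1*, for the interferon-inducible PA28 alpha, had 598 in columnar/hypertrophic cartilage and 851 in round cartilage, a difference of -0.51 on its only probe set. *Psme1* and *Psmb10*, both inducible by interferon, were thus lower in columnar/hypertrophic cartilage, and both kept their sign under the other scalings (-0.43 to -0.42 for *Psme1* and -0.25 to -0.15 for *Psmb10*).

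The direction of a member probe set went with its brightness. Of the 47 member probe sets with a mean signal of at least 1000, 45 (95.7%) were higher in columnar/hypertrophic cartilage, with a median of 0.38, against 56.6% and 0.06 for the 6916 such probe sets on the array. Of the 29 dimmer ones, 11 (37.9%) were higher in columnar/hypertrophic cartilage, with a median of -0.14, against 38.1% and -0.15 for the 22342 dim probe sets. Dim member probe sets therefore had the same balance as dim probe sets at large. The probe sets of *Psmb10* and *Psme1*, with mean signals of 289 and 713, were among these dim ones. All 4 member probe sets that were at least 1.5-fold higher in round cartilage were dim, and belonged to *Psma1*, *Psmc6* and *Psmd9*, whose brightest probe sets were higher in columnar/hypertrophic cartilage. Because genes were taken at their brightest probe set, the 32 core and regulator genes were all represented by bright probe sets except *Psma8*.

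Set against genes of like brightness, the members kept their position. All 33 member genes with a mean signal of at least 1000 were higher in columnar/hypertrophic cartilage, against 56.9% of the 4255 such genes, although *Psma5* turned under quantile normalization and lowess centring. Their median was 0.42 and their SD over genes 0.19, against a median of 0.07 and an SD of 0.58 over all bright genes. Lowess centring, which removes the trend of the difference with brightness, gave a member median of 0.30 against 0.01 for all genes, and quantile normalization gave 0.31 against 0.03. After each of these scalings, 36 of 39 member genes were higher in columnar/hypertrophic cartilage, but they were not the same 36 as before. *Psma5* left the count (-0.08 after lowess centring and -0.07 after quantile normalization) and *Psma8* entered it (0.05 and 0.04). The members exceeded all genes by 0.29 and 0.28, against 0.44 as deposited.

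**Figure D3:**
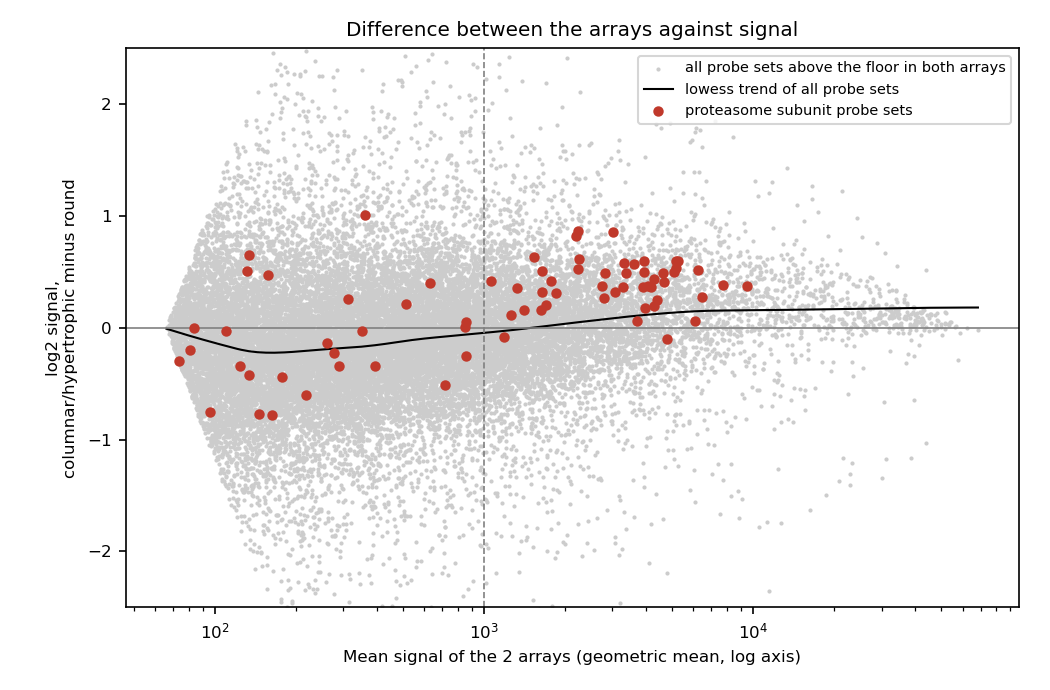
Log2 signal of columnar/hypertrophic cartilage minus round cartilage (vertical axis) against the mean signal of the 2 arrays (horizontal log axis). Only probe sets above the floor in both arrays are drawn, all of them in grey and the members in colour. Of the drawn probe sets, 180 lie beyond the vertical range. Bright members form a narrow band above 0, and dim members are spread about the grey cloud.

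Other genes of the pathway were read from lists. Of 6 genes for assembly and maturation of the core, 5 were compared, and all 5 were higher in columnar/hypertrophic cartilage, with a median of 0.36. *Pomp*, the maturation protein of the core, had 4702 in columnar/hypertrophic cartilage and 3676 in round cartilage (log2 difference 0.36). *Psmg3*, an assembly chaperone of the alpha ring, had the largest difference of the list, 0.68. Of 18 proteasome-associated factors, 16 were compared, 14 were higher in columnar/hypertrophic cartilage, and 0 reached 1.5-fold in either direction. Their median was 0.31, with *Vcp*, the ATPase that pulls ubiquitinated proteins out of membranes and complexes, at 12252 in columnar/hypertrophic cartilage and 9078 in round cartilage (0.43). The median was 0.14 when genes took the mean of their probe sets. *Psmf1*, an inhibitor that blocks the core, had 592 in columnar/hypertrophic cartilage and 593 in round cartilage on its brightest probe set. The other *Psmf1* probe sets had 331, 238 and 115 in columnar/hypertrophic cartilage, against 486, 393 and 203 in round cartilage, log2 differences of -0.56, -0.72 and -0.81, so that the probe sets disagreed.

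Of 7 compared regulators of proteasome gene transcription, 5 were higher in columnar/hypertrophic cartilage, with a median of 0.34. *Nfe2l1*, which encodes NRF1, the factor that induces proteasome genes when proteasome activity is short, had 3793 in columnar/hypertrophic cartilage and 2662 in round cartilage (log2 difference 0.51). *Nfe2l2*, for NRF2, the factor of the oxidative stress response, had 1027 in columnar/hypertrophic cartilage and 632 in round cartilage (0.70). *Ngly1*, whose product removes the sugars from NRF1 and so allows its activation, had 1289 in columnar/hypertrophic cartilage and 1731 in round cartilage (-0.43). The list thus held genes of both directions, and its median was 0.02 when genes took the mean of their probe sets. Of 6 genes for ubiquitin supply and activation, only *Uba6* was measured on a probe set of its own, with a difference of 0.07.

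Genes of antigen presentation and interferon response, many of which are induced together with the immunoproteasome, ran mostly the other way. Of 11 compared genes, 3 were higher in columnar/hypertrophic cartilage and 8 in round cartilage, against 46.8% and 53.2% of all compared genes, with a median of -0.49. All of them except *B2m* and *H2-K1* had a mean signal under 1000. Of the 22342 probe sets that dim, 38.1% were higher in columnar/hypertrophic cartilage, with a median of -0.15. The median of the list ranged over the alternatives from -0.82 without a floor and -0.74 with a floor at the 20th percentile to -0.30 after lowess centring and -0.28 with a floor at the 60th percentile. *Erap1*, a peptidase that trims antigenic peptides in the endoplasmic reticulum, had 91.2 in columnar/hypertrophic cartilage and 205 in round cartilage (-1.17). *Tap2*, a subunit of the peptide transporter, had 18.5, under the floor, in columnar/hypertrophic cartilage and 139 in round cartilage, a bound of at least 2.10-fold. *H2-K1* was at least 2-fold the other way, with 2322 in columnar/hypertrophic cartilage and 963 in round cartilage, on a probe set that may also detect related class I genes, and is uncertain. *B2m*, the light chain of class I molecules, had 1856 in columnar/hypertrophic cartilage and 3461 in round cartilage (-0.90). *Psmb8* and *Psmb9* alternate with *Tap1* and *Tap2* as neighbours on chromosome 17, in the order *Psmb9*, *Tap1*, *Psmb8*, *Tap2*. Of these 4 neighbours, *Tap1* alone was above the floor in both arrays, with 96.2 in columnar/hypertrophic cartilage and 149 in round cartilage (-0.63).

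Markers of other cell types were read as well, and some lists differed between the sections while others differed little. Fibroblast and perichondrium markers were above the floor for 6 of 7 genes in each array, with a summed signal of 11045 in columnar/hypertrophic cartilage and 62696 in round cartilage, and *Scx* was under the floor in both. Of 12 leukocyte markers, 4 were above the floor in columnar/hypertrophic cartilage and 5 in round cartilage, with summed signals of 705 and 1001. Of the leukocyte list, *Ptprc*, *C1qa*, *C1qb*, *Tyrobp*, *Fcer1g*, *Cd52* and *Coro1a* were under the floor in both arrays. The others went in both directions. *Laptm5*, *Cd68* and *Cd74* had 181, 63.4 and 67.1 in columnar/hypertrophic cartilage, against 488, 102 and 68.7 in round cartilage. *Csf1r* and *Lyz2* had 161 and 139 in columnar/hypertrophic cartilage, against 91.0 and 100 in round cartilage. Of 7 endothelial markers, 3 were above the floor in columnar/hypertrophic cartilage and 4 in round cartilage. Their summed signals of 360 and 402 include signals under the floor. *Cdh5* (log2 difference 0.45) and *Cldn5* (0.25) were higher in columnar/hypertrophic cartilage, and *Pecam1* (-0.57), *Kdr* (-0.41) and *Emcn* (-0.04) in round cartilage. Of 4 skeletal muscle markers, 2 were above the floor in columnar/hypertrophic cartilage and 1 in round cartilage, with summed signals of 784 and 169. Of 3 measured osteoblast markers, 3 were above it in columnar/hypertrophic cartilage and 1 in round cartilage, with summed signals of 1647 and 250. Of 4 osteoclast markers, 1 was above it in each array, with summed signals of 1465 in columnar/hypertrophic cartilage and 1299 in round cartilage. Of 3 measured erythroid markers, 0 were above it in columnar/hypertrophic cartilage and 1 in round cartilage, with summed signals of 129 and 119. The part of these cells in the lower *Psmb10* and *Psme1* signals or the higher core and regulator signals of columnar/hypertrophic cartilage was not tested.

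**Figure D4:**
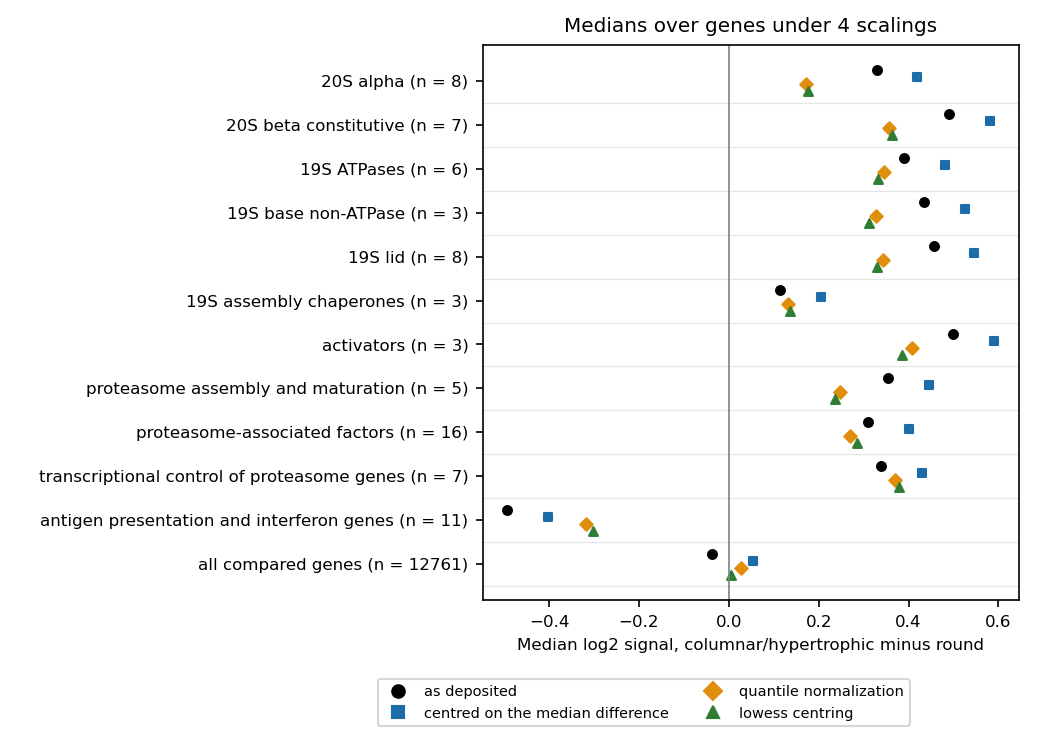
Median log2 signal of columnar/hypertrophic cartilage minus round cartilage (horizontal axis) under 4 scalings, with the number of genes. Subunit classes and gene lists with too few compared genes for a median are not drawn. Every class and pathway list drawn lies right of 0 under each scaling. The antigen presentation and interferon list lies left of it, and all compared genes lie between -0.04 and 0.05. The immunoproteasome class has no median, and *Psmb10*, its only compared gene, had negative differences under each scaling (-0.34 to -0.15).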

How the data were processed

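RNA of the columnar and hypertrophic section and of the round section of *Tric-b*-knockout femoral cartilage was measured on 1 array each, grouped by the sample labels. The authors deposited linear intensities, 1 for each probe set and array. MAS5 is named in the submitters' processing notes without a version. The paper's methods, which describe the round specimen only, give robust multiarray analysis for drawing heatmaps, but its output is in log units, unlike these values, which were used as given. MAS5 sets each array to a common trimmed mean, so a change in total RNA per cell is lost, and it takes mismatch probes as background, which makes low signals variable. Depth has no meaning here, and the number of arrays limits the precision.

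Gene names came from the platform annotation, with symbols checked through Entrez identifiers, of which 34741 of 34945 matched and 0 changed. Where both signals of a probe set were under the floor it was left out, and where 1 was, that signal was raised to the floor and the difference is a bound. Each gene was represented by its brightest probe set, ranked by mean log2 signal. With 1 array for each zone no test was made, and size rules of 2-fold and 1.5-fold were used. The smallest list given a median had 3 genes.

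The members, the lists and the motifs were chosen with earlier results of these data known. Named were all immunoproteasome, catalytic and activator members, the extremes of each class, members past 2-fold, members whose probe sets disagreed by over 1, members under the floor, and other list genes past 2-fold. Further genes are examples chosen after their values were seen. Promoters came from a RefSeq table and *Psma8*, *Psmb1*, *Psmb2*, *Psmb7*, *Psmc3*, *Psmd3* and *Psmd7* had no entry there.

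Alternatives were other scalings (quantile normalization, lowess centring, centring on the median difference), other floors (20th percentile, 60th percentile, none), other rules for a gene's probe sets (mean, median, specific ones only) and a count by gene. The log2 differences and lowess centring were checked on simulated data with known changes. Quantile normalization was run on the same data, but its result was not held to a limit. All simulated probe sets of a member had the same change, so the choice of a gene's probe set was not checked. Other steps, such as the motif search and the marker sums, were not checked either. Calculations were run in Python 3.11.15 with pandas 2.3.3, numpy 2.4.6 and statsmodels 0.14.6, and figures with matplotlib 3.10.9.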

Additional observations from a re-analysis of the deposited data

How the results depend on the processing

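No paired analysis was possible because only 1 array was hybridized for each section. As differences have no replicate error, log2 values were judged by a tolerance. This was the pooled SD between probe sets of a gene, 0.34 on the log2 scale. It holds no variation between animals and does not apply to counts. The tolerance is close in size to several class medians, so a median could lose most of its difference and stay within it. The median of the transcription regulators did so, going from 0.34 to 0.02 with the mean over probe sets. Of the main results, 179 values under the alternatives were labelled as the same and 18 as moved, which is no measure of robustness. The median of all compared genes, -0.04 as deposited, turned to 0.05 after centring, 0.03 after quantile normalization, 0.01 after lowess centring and 0.07 over bright genes. Member probe sets at least 1.5-fold higher in columnar/hypertrophic cartilage were 20 after centring on the median difference and 6 when genes were counted. Those higher in round cartilage were 0 after quantile normalization, 1 after lowess centring, 0 with a floor at the 60th percentile, 9 without a floor and 0 when genes were counted. For the other scalings and floors, the 1.5-fold share over all probe sets was not computed. At 2-fold, members higher in columnar/hypertrophic cartilage were 1 with the 60th percentile floor and 1 counting genes, and without a floor 2 were higher in columnar/hypertrophic cartilage and 4 in round cartilage. All probe sets at least 2-fold higher in columnar/hypertrophic cartilage and in round cartilage were 2369 and 3936 with the 20th percentile floor, 601 and 801 with the 60th percentile floor, 5074 and 7128 without a floor, and 541 and 786 counting genes. Of the 2-fold calls, 36.4% were in the columnar/hypertrophic direction as deposited, 45.4% after centring, 48.6% after quantile normalization and 47.3% after lowess centring. The member median was 0.33 with the mean over probe sets, where 32 of 39 genes were higher in columnar/hypertrophic cartilage, and 0.37 with the median over probe sets. *Psmb9* entered only with lower floors, at 0.86 with the floor at the 20th percentile. With the mean over probe sets, *Psma1* was -0.21, *Psmc6* -0.16, *Psmd11* 0.17, *Psmd7* 0.26 and *Psmd9* -0.49, and *Psme3* was 0.74. The cause of these changes was not tested beyond the probe sets named in the report.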

Other observations

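Other complexes of many subunits were set beside the proteasome, with lists chosen after seeing the data. The 8 subunit genes of the CCT chaperonin, which folds actin and tubulin, were all higher in columnar/hypertrophic cartilage, with a median log2 difference of 0.41, from 0.18 for *Tcp1* to 0.61 for *Cct3*, close to the 0.40 of the proteasome members. The 9 genes of the COP9 signalosome, which is related in build to the proteasome lid, had a median of 0.11, with 7 higher in columnar/hypertrophic cartilage. The 11 measured of 13 genes of the translation initiation factor eIF3, related to the lid as well, had a median of 0.07, with 8 higher in columnar/hypertrophic cartilage. After lowess centring, the medians were 0.25 for CCT, 0.02 for the COP9 signalosome and -0.08 for eIF3, against 0.30 for the proteasome members. No test between these lists was possible with 1 array for each zone.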
